A study of Mus musculus with 5 samples.

Results

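The genes described here encode subunits of the oxidative phosphorylation machinery of the mitochondrial inner membrane. They were taken by name: every probe set with a single gene symbol of the Nduf (letters a, b, c, s or v followed by a number), Sdh, Uqcr, Cox4 to Cox8 or Atp5 families was kept, and each gene was represented by its brightest probe set. This gave 81 genes with 164 probe sets, of 18193 genes with 34945 probe sets on the array. RNA had been measured on 5 mouse arrays, 4 of medulloblastoma, a tumour of the cerebellum, and 1 of cerebellum labelled P5, read here as postnatal day 5. The labels give no genotype, treatment, sex or tumour age for single arrays; the series title concerns tumours of Cxcr6 mutant mice and a Smoothened inhibitor, and neither could be compared. The titles of medulloblastomas 1 and 2 start with ken and those of medulloblastomas 3 and 4 and the cerebellum with hmk. RNA had been extracted with Trizol for all arrays but medulloblastoma 4, whose record names only the standard Affymetrix procedure.

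Oxidative phosphorylation passes electrons from NADH through complex I (NADH dehydrogenase), or from succinate through complex II (succinate dehydrogenase), to ubiquinone, then through complex III (cytochrome bc1) and cytochrome c to complex IV (cytochrome c oxidase), which reduces oxygen. Complexes I, III and IV pump protons, and complex V, the ATP synthase, uses their return to make ATP. Most subunits are encoded in the nucleus, where promoters of these genes are known to hold sites for the factors NRF1, GABPA (also called NRF-2) and YY1; the remaining few are encoded in mitochondrial DNA and were not analysed here. In the cerebellum, granule neuron precursors multiply after birth and then mature, and neurons are known to depend strongly on respiration.

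Promoter sequence is shown for 4 members because NRF1, GABPA, YY1 and the estrogen-related receptors (ERR) are the factors whose own genes are described at the end. RefSeq promoter windows (GRCm38.p6; 250 bases before to 50 after the start site) were found for 66 of the 81 members, 71 windows in all. The letters searched, on both strands, were GCATGCGC for NRF1, CCGGAAG for GABPA and AAGATGGCG for YY1, and, chosen after the values of Esrrg had been seen, TNAAGGTCA for ERR. The NRF1 letters can overlap their own reverse complement, as in Cox6a1, where matches on both strands start at -162 and -160 from the start site. The 250 bases before the start site are printed 5′ to 3′ on the gene's strand with matches in capitals. Cox6a1 lies on the minus strand (chr5:115348959-115349208) and holds NRF1 letters and, at -16, GABPA letters, Sdhb on the plus strand (chr4:140961021-140961270) NRF1 letters, Atp5j on the minus strand (chr16:84834977-84835226) YY1 and then GABPA letters, and Atp5g3 on the minus strand (chr2:73911327-73911576) ERR letters on the opposite strand.
Cox6a1: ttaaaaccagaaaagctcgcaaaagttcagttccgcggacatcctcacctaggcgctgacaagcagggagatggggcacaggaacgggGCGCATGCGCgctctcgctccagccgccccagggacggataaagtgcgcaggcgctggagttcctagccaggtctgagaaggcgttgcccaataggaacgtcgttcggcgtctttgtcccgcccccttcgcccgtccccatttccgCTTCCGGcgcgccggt
Sdhb: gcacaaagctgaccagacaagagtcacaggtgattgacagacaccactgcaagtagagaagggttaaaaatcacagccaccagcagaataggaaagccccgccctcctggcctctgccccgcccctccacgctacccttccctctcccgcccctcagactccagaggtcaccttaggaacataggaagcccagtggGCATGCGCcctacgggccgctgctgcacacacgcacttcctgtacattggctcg
Atp5j: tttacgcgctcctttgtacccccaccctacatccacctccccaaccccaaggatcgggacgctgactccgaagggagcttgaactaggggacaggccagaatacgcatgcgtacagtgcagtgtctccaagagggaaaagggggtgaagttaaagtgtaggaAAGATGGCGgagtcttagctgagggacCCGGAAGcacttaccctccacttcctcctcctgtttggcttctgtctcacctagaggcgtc
Atp5g3: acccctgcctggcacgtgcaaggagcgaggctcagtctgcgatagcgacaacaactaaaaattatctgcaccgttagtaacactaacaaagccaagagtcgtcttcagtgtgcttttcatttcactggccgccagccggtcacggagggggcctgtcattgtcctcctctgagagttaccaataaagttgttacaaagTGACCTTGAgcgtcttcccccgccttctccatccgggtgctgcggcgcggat

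In the whole windows, NRF1 letters were found in 9 of 71 member windows (12.7%), against 4.62% of the 14420 windows of all genes tested. GABPA letters were in 17 (23.9% against 15.1%), YY1 letters in 6 (8.45% against 2.50%) and ERR letters in 3 (4.23% against 0.832%). Over all 32851 windows of the table the shares were 2.71%, 8.86%, 1.40% and 1.28%. A match is a description of these letters and no evidence of binding. Members with any of the 4 motifs lay on both sides of the cerebellum. Among 28 such genes tested the tumour minus cerebellum difference had a median of 0.06 on the log2 scale. In all 4 tumours 9 were above the cerebellum and 5 below it. Among 37 without a match the median was -0.07, with 6 above and 10 below. By motif, medians were 0.06 for NRF1 (9 genes, 2 above and 3 below) and 0.01 for GABPA (17, 5 and 3). For YY1 the median was 0.24 (6, 4 and 0), with all differences between 0.10 and 0.52. For ERR it was -0.33 (3, 0 and 1), with differences from -0.97 to 0.11. For comparison, 25.1% of all genes tested were above the cerebellum in all 4 tumours and 30.8% below it. Among the 80 members tested these shares were 18.8% and 25%. Differences between motifs were not tested.

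The subunit genes as a group were at nearly the same signal in the tumours as in the P5 cerebellum. Of the 81 members, 80 passed the filter of a mean signal of at least 100 and were tested; Cox8b, the muscle and heart form of a small complex IV subunit, did not. The median difference, tumour minus cerebellum in log2(signal + 32), was -0.04 over these 80 genes and -0.07 over all 14109 genes tested. Among genes averaging a signal of 1000 or more it was -0.01 over 70 members and 0.10 over all 4527 genes. By tumour the member median was 0.05, -0.03, -0.08 and -0.05 in medulloblastomas 1 to 4. None of the 80 passed limma's test at an adjusted p under 0.05, a threshold that 0.489% of all genes passed. At an unadjusted p under 0.05 there were 2 members, Uqcrc1 and Ndufa4, or 2.5% of the members against 15.2% of all genes. The scale of a whole group depends on the scaling of the arrays: 47.5% of members were on the higher side as deposited, 78.8% when arrays were given equal medians (member median 0.16, all genes 0.12) and 33.8% after quantile normalization (-0.12, all genes -0.04).

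The differences were also narrow in range. They ran from -0.97 (Ndufb4) to 0.52 (Ndufa9), whereas 14.7% of all genes tested had a difference of at least 1, that is 2-fold, in either direction. In every tumour 4.64% of all genes tested were 2-fold or more away from the cerebellum, and no member did. The members are bright, with a median of their mean signals of 4051 against 581 for all genes, and bright genes vary less. Among the 4527 genes averaging a signal of 1000 or more, 7.80% still differed by at least 1, and 31.8% by at least 0.5; of the 70 members that bright, 4 (5.71%) differed by at least 0.5. The 95% confidence interval of the difference lay wholly within 2-fold for 63 of the 80 members, or 78.8%, against 28.1% of all genes. Among genes averaging 1000 or more it did so for 90% of members and 52.2% of all genes. Members were brighter within this class too, with a median of their mean signals of 4505 against 1784. These comparisons are therefore not matched for brightness, and its part in the narrow range was not tested. The intervals assume that the single cerebellum array varies like the tumours, which these data cannot check, and the cerebellum has no replicate. In bulk tissue, fewer cells of a type and less RNA per cell cannot be told apart.

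**Figure D1:**
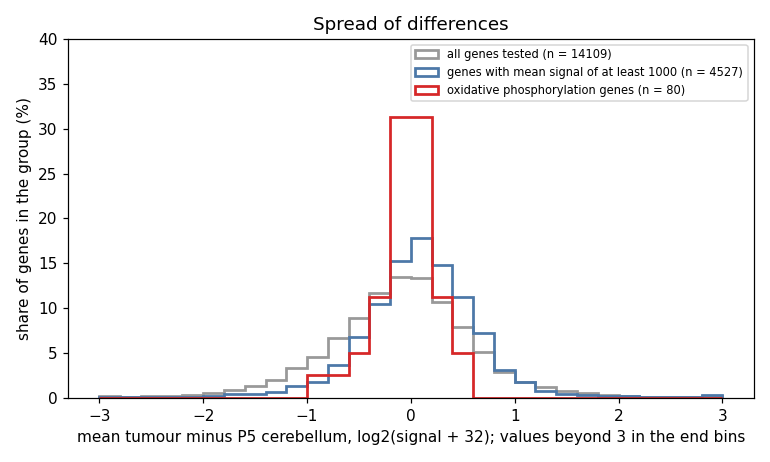
Share of genes (%) by the mean tumour minus P5 cerebellum difference in log2(signal + 32), for all 14109 genes tested (grey), the 4527 genes averaging 1000 or more (blue) and the 80 oxidative phosphorylation genes tested (red). The red line stays between -0.97 and 0.52, and the other lines have tails beyond 1 on both sides.

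By side, 15 members were above the cerebellum in all 4 tumours (18.8%, against 25.1% of all genes) and 20 below it (25%, against 30.8%), while 45 had tumours on both sides. Among genes averaging 1000 or more the shares were 36.8% above and 21.3% below, against 20% and 22.9% of the 70 members that bright. These counts turn with the scaling: 34 members were above and 6 below with equal medians, and 7 above and 30 below after quantile normalization. By complex, the counts on the values as deposited were as follows. Of 33 complex I genes 9 were above and 5 below; of the 4 complex II genes none was above and 3 below; of 8 complex III genes 1 was above and 5 below; of 16 complex IV genes 2 were above and 3 below; and of 17 complex V genes 3 were on each side. Their medians were 0.06 for the 6 core and 0.07 for the 27 accessory subunits of complex I, -0.24 for complex II, -0.12 for complex III, -0.10 for complex IV and 0.01 for complex V. The complex IV genes include tissue-restricted forms, mostly dim, among them Cox7a1 above and Cox8c and Cox6b2 below. These differences between complexes were not tested, and all but that of complex II changed sign under a scaling alternative (equal medians for complexes III and IV, at 0.07 and 0.08; quantile normalization for the accessory subunits of complex I and for complex V, at -0.03 and -0.12; the median of the core subunits of complex I came to just below 0).

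**Figure D2:**
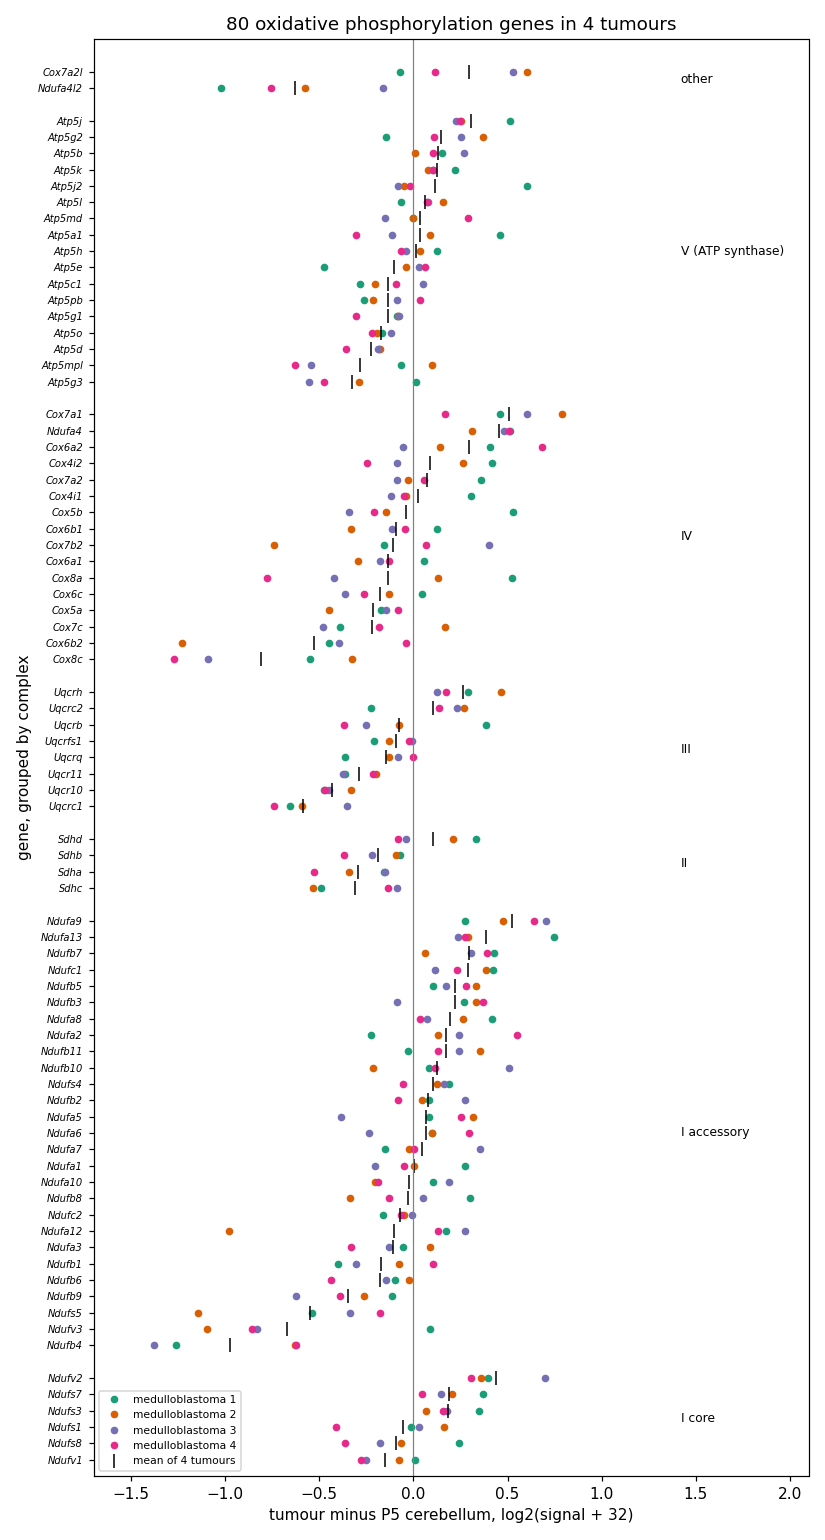
Tumour minus P5 cerebellum difference in log2(signal + 32) for each of the 80 members tested, grouped by complex, with a point for each of the 4 tumours and a bar for their mean. Most points lie within 0.5 of zero; complexes II and III have more genes with all points on the left, and complex I has more with all points on the right.

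In complex I, the core subunits carry the flavin and the iron-sulphur clusters. Ndufv2, an iron-sulphur subunit of the NADH-oxidising module, had signals of 5630, 5492, 6966 and 5285 in medulloblastomas 1 to 4 and 4271 in the cerebellum, a difference of 0.44 ± 0.23 (SE; limma, adjusted p = 0.391). All 4 tumours lay above the cerebellum, and its 2 other probe sets differed by 0.19 and 0.22. Ndufs7, which holds the last cluster before ubiquinone, read 2891, 2576, 2472 and 2306 against 2233 (0.19 ± 0.23), with tumours on both sides on a second probe set (0.08), and Ndufs3 was also above in every tumour (0.19 ± 0.22). The other core subunits measured, Ndufv1, Ndufs1 and Ndufs8, differed by -0.15, -0.06 and -0.09, with tumours on both sides. Of the further Ndufs8 probe sets, 1 nearly as bright was above in every tumour (0.33). The rest had tumours on both sides (-0.37 to 0.21). None of the core subunits was below the cerebellum in all 4 tumours.

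Among the accessory subunits, which stabilise the complex, Ndufa9 had the largest difference on the higher side. It read 2688, 3093, 3628 and 3476 against 2214 (0.52 ± 0.24, adjusted p = 0.355 by limma), with medulloblastoma 1 closest to the cerebellum. Its adjusted p ranged from 0.0417 to 0.659 over the alternatives, the lowest within the hmk arrays, where the difference was 0.67 and 11.9% of all genes were called. Ndufa13, also known as GRIM-19, read 5584, 4054, 3910 and 4006 against 3312 (0.39 ± 0.26). All tumours were above, medulloblastoma 1 by far the most. Ndufb7 and Ndufc1, with differences of 0.29 each, were the only members with several probe sets of mean signal of at least 100 that were above the cerebellum in every tumour on each of them.

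On the lower side stood Ndufb4, at 121, 205, 109 and 206 against 335 (-0.97 ± 0.50, adjusted p = 0.392). This is a dim probe set, and the other probe sets for Ndufb4 carry several gene symbols and were not used. Ndufs5 read 1711, 1115, 1976 and 2211 against 2504 (-0.55 ± 0.36), all tumours below and medulloblastoma 2 lowest. Ndufv3, a small subunit beside the flavin site, split the tumours: 7103 in medulloblastoma 1, close to the 6676 of the cerebellum, and 3097, 3738 and 3674 in the others. Its difference was -0.67 ± 0.41 (limma, adjusted p = 0.459), and without medulloblastoma 1 it was -0.93 and passed the threshold (adjusted p = 0.0297), as it did within the hmk arrays (-0.84, adjusted p = 0.0110), where the spread comes from a single pair of tumours. Those fits called 5.89% and 11.9% of all genes, against 0.489% with all tumours. Ndufa12 had the largest spread among tumours, an SD of 0.59: medulloblastoma 2 read 3574, and the others 7977, 8549 and 7734, against 7076 in the cerebellum. A second probe set of Ndufa12 showed the same low tumour (3873 against 5836 to 6242), but another did not (4507, with 3418 in medulloblastoma 1, 4134 in medulloblastoma 3 and 5543 in medulloblastoma 4).

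**Figure D3:**
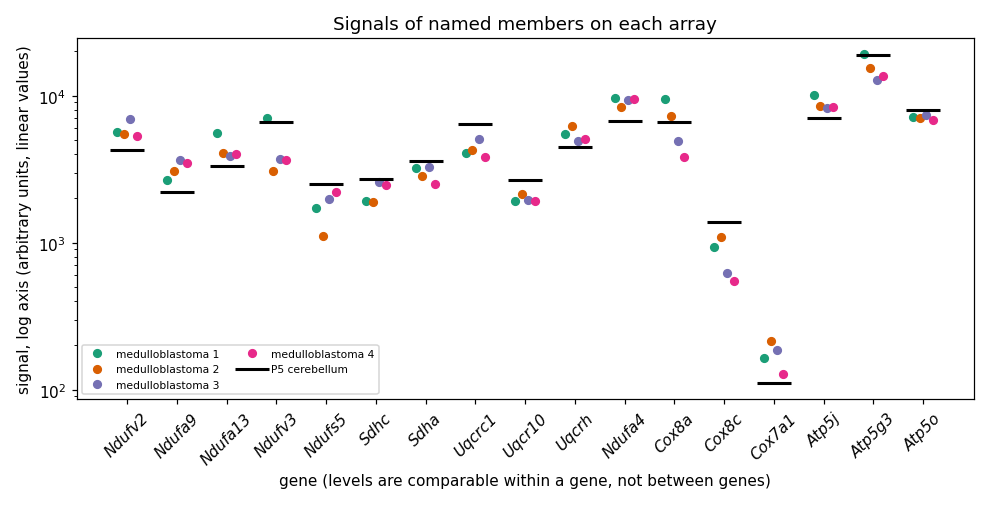
Signal (linear values on a log axis) of 17 members in the 4 tumours (points) and the P5 cerebellum (bar); signals are comparable within a gene and not between genes. For Uqcrc1 and Uqcr10 all points lie under the bar, for Ndufa4 and Ndufa9 all lie above it, and for Cox8a the order of the tumours runs from 9530 in medulloblastoma 1 to 3853 in medulloblastoma 4.

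Complex II is also an enzyme of the citric acid cycle. Sdhc, one of its membrane anchors, read 1937, 1880, 2572 and 2484 against 2734 (-0.31 ± 0.26), and a second probe set was also lower in every tumour (-0.54). Sdha, the flavoprotein subunit, read 3239, 2846, 3256 and 2501 against 3619 (-0.29 ± 0.24), but its next probe set had the opposite sign (0.24). Sdhb, the iron-sulphur subunit, was lower in every tumour by a small amount (-0.19 ± 0.22), and Sdhd, the second anchor, had 2 tumours on each side (0.11 ± 0.26). None of these differences passed the test.

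In complex III, Uqcrc1, a core protein of the complex on its matrix side, had the smallest unadjusted p of all members (0.031). Its signals were 4086, 4267, 5039 and 3856 against 6458, which is -0.59 ± 0.22 on the log2 scale (limma, adjusted p = 0.284; 95% interval -1.10 to -0.07). Every tumour was below the cerebellum, and over the alternatives the difference was between -0.68 and -0.39, with adjusted p between 0.095 and 0.494. Uqcr10, a small subunit, read 1921, 2131, 1961 and 1931 against 2687 (-0.43 ± 0.22, adjusted p = 0.385). On this probe set the tumours lay within an SD of 0.07 of each other, all below. A second Uqcr10 probe set scattered on both sides, at 1052, 632, 467 and 83.4 against 601. The mean over its probe sets had an adjusted p of 0.813 (limma). Uqcrh, the hinge protein that helps cytochrome c bind, was the 1 gene of the complex above the cerebellum in all tumours, at 5484, 6196, 4887 and 5049 against 4483 (0.26 ± 0.22), though a second probe set had tumours on both sides (0.03). Uqcrfs1, the Rieske iron-sulphur protein, was slightly below the cerebellum in every tumour (-0.09 ± 0.21).

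For complex IV, differences were small in 4 ubiquitous subunits that have tissue-restricted counterparts. Cox4i1 differed by 0.02 ± 0.22, Cox6a1 by -0.14 ± 0.20, Cox6b1 by -0.09 ± 0.22 and Cox7a2 by 0.07 ± 0.22, each with tumours on both sides; after quantile normalization Cox6a1 differed by -0.50 (adjusted p = 0.219). Cox5a, another ubiquitous subunit, was below the cerebellum in every tumour on its brightest probe set (-0.21 ± 0.21). Its other probe sets differed by -0.18 and -0.28, with tumours on both sides. Cox5b differed by -0.04 on its brightest probe set, with tumours on both sides, and by -0.71 on another, with every tumour below. Ndufa4, named for complex I but now placed in complex IV, read 9592, 8335, 9371 and 9554 against 6708, a difference of 0.45 ± 0.19 (unadjusted p = 0.048, adjusted p = 0.326 by limma). All tumours were above, and medulloblastoma 2 was the lowest of them. The 95% interval of this difference ran from 0.00 to 0.90.

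Cox8a separated the tumours by their title prefix: the ken tumours read 9530 and 7267, the hmk tumours 4934 and 3853, and the cerebellum, between them, 6627. A second probe set gave the same order, with 8177, 6585, 4643 and 3538 against 5777. The mean difference, -0.14 ± 0.44, therefore describes none of the tumours; the hmk tumours were both below the cerebellum of their own prefix, and the ken tumours have no cerebellum of theirs. Over all members, both ken tumours were above both hmk tumours for 26 of 80 genes (32.5%, against 23.3% of all genes) and below them for 14 (17.5%, against 21.5%). Prefix, tumour and anything else that separates these pairs cannot be told apart.

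Tissue-restricted forms of the complex IV subunits were mostly dim and none was called. Cox8c, known from testis, read 928, 1088, 626 and 550 against 1373 (-0.81 ± 0.39, adjusted p = 0.366 by limma), all tumours below. Within the hmk arrays Cox8c passed (-1.18, adjusted p = 0.0214), but its second probe set differed by 0.38 in the other direction. Cox6b2, also a testis form, read 241, 127, 251 and 331 against 341 (-0.53 ± 0.50). Cox7a1, the heart and muscle form, read 165, 216, 186 and 129 against 111 (0.51 ± 0.49), all tumours above. Cox4i2 (0.09 ± 0.45), Cox6a2 (0.29 ± 0.40) and Cox7b2 (-0.11 ± 0.64) had tumours on both sides. Cox8b, below the filter, read 46.4, 35.7, 86.5 and 54.7 against 112. Ndufa4l2, a relative of Ndufa4 that is induced in low oxygen and marks pericytes in brain, read 168, 241, 332 and 209 against 375 (-0.63 ± 0.43). Of 8 pericyte and smooth muscle markers tested 5 were below the cerebellum in every tumour and none above, against 30.8% and 25.1% of all genes. The summed signal of all 10 such markers on the list was 4107 to 6021 in the tumours and 9049 in the cerebellum, and its part in the Ndufa4l2 value was not tested. Of 12 striated muscle markers 6 could be tested, with a median of -0.04 and a summed signal over all 12 of 1234 to 3128 in the tumours against 1758. Cox7c, a ubiquitous subunit, had only dim probe sets with a single symbol (114 to 196 in the tumours against 172), so its level is uncertain here.

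In complex V, Atp5b, the catalytic beta subunit, read 12738, 11537, 13846 and 12334 against 11481 (0.13 ± 0.19). The tumours all lay above, medulloblastoma 2 by the least. Atp5a1, the alpha subunit, differed by 0.03 ± 0.29 with tumours on both sides. Atp5j, coupling factor 6 of the stalk, read 10133, 8463, 8312 and 8422 against 7103 (0.31 ± 0.21, adjusted p = 0.498). Atp5o, the stalk protein known as OSCP, was lower in every tumour by little, at 7145, 7015, 7393 and 6887 against 8023 (-0.17 ± 0.19), and had the smallest SD among tumours of all members, 0.04. Its second probe set was neither tight nor on one side, at 1220, 1438, 2671 and 2370 against 2499. Atp5d, the delta subunit, read 6201, 6219, 6182 and 5480 against 7044 (-0.23 ± 0.20), and a second probe set was also below in every tumour (-0.19). Atp5k was above in every tumour on its brightest probe set (0.13 ± 0.19) but below in every tumour on its other probe sets (-0.16 and -0.24). The direction of Atp5b turned after quantile normalization (-0.058), and that of Atp5o with equal medians (0.021). Of the 3 genes of the proton-carrying c ring, which encode the same mature protein, Atp5g3 differed by -0.33 ± 0.25, Atp5g1 by -0.14 ± 0.22 and Atp5g2 by 0.15 ± 0.24; differences between these genes were not tested, and dim second probe sets of Atp5g1 and Atp5g2 gave 0.73 and 0.89. Within the hmk arrays Atp5g3 passed limma's test (-0.52, adjusted p = 0.0397), in a fit that called 11.9% of all genes.

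Medulloblastoma 1 was the highest of the tumours for 31 of 80 members (38.8%, against 30.9% of all genes), and for 9 of the 11 members averaging 10000 or more. Cox7a2, for example, read 22197 there and 16263 to 17985 in the other tumours, and Uqcrb 17580 and 10404 to 12792. The exceptions were Cox5a, highest in medulloblastoma 4, and Atp5b, highest in medulloblastoma 3. The same count was not made for all genes that bright. The array of medulloblastoma 1 also held the largest signal of any probe set, 106261, against maxima of 40912 to 75542 in the other tumours. Control probe sets at both ends of the actin and Gapdh transcripts, which report on RNA quality, gave this array the highest ratios as well, 1.45 for actin and 0.946 for Gapdh. Actin ratios of the remaining arrays ran from 1.21 to 1.35, and their Gapdh ratios from 0.731 to 0.824. Summed signals of some cell type markers also stood highest in medulloblastoma 1. These were 45322 for mature granule neurons (others 20810 to 27447), 33226 for Purkinje cells (others 7512 to 18495) and 3128 for striated muscle (others 1234 to 1310). Astrocyte, endothelial and brown fat markers were highest there too, while granule neuron precursor, microglia and erythroid markers were lowest. The part of RNA quality or of these markers in the values of this tumour was not tested.

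Probe sets of the same gene gave a check on the small size of the differences. For 45 members a second probe set had a mean signal of at least 100; its difference had the same sign as that of the brightest in 32 and the opposite sign in 13, and the median gap between them was 0.14. The gap was at least 0.5 for Cox8c, Atp5g1, Atp5g2 and Sdha. Of these 45 members, 4 kept all 4 tumours on one side on every such probe set: Ndufb7 and Ndufc1 above, and Sdhc and Atp5d below. The same counts were not made for all genes.

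**Figure D4:**
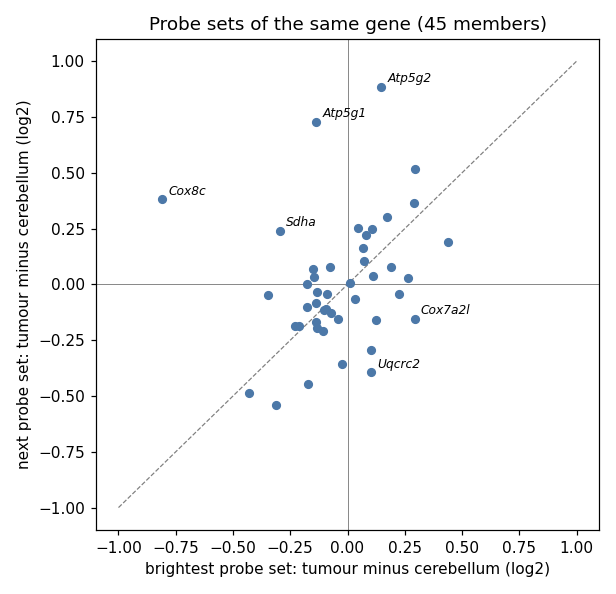
Tumour minus P5 cerebellum difference (log2) on the brightest probe set of a gene against that on its next brightest, for the 45 members where both had a mean signal of at least 100; the dashed line marks equality. Points scatter around the line with a median gap of 0.14, and Cox8c, Atp5g1, Atp5g2 and Sdha lie furthest from it.

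Other mitochondrial gene lists are read against the shares of all genes, 25.1% above and 30.8% below. Of 42 assembly factors tested, which build the complexes, none was called by limma (5 at an unadjusted p under 0.05), 11 were above and 11 below the cerebellum in all tumours, and the median was -0.01. The furthest were Atpaf2, a chaperone of the ATP synthase, at 377, 270, 183 and 238 against 24.5 (2.36 ± 0.50, adjusted p = 0.105 by limma), and Cox17, the copper chaperone of complex IV, at 2611, 2186, 2580 and 1867 against 797 (1.49 ± 0.27, adjusted p = 0.0682). All tumours were at more than 2-fold the cerebellum for both. The cerebellum signal of Atpaf2 lies below the added constant of 32, so its difference depends on that constant. Next by size was Ndufaf6, a complex I assembly factor (1.39 ± 0.57). The 17 citric acid cycle genes had their median at 0.05, with 5 above and 2 below, carriers and pores -0.16 over 17 with 4 above and 7 below, and mitochondrial ribosomal proteins 0.11 over 58 with 20 above and 9 below; none of these genes was called by limma, and 5 ribosomal genes and no gene of the other lists had an unadjusted p under 0.05. The furthest in each were Cs, citrate synthase (-0.47 ± 0.23), Idh2 (0.41 ± 0.25) and Pdhb (-0.36 ± 0.21); Slc25a13 (1.16 ± 0.73), Tomm20 (0.75 ± 0.33) and Slc25a1 (-0.59 ± 0.28); and Mrpl51 (0.79 ± 0.24), Mrps28 (0.77 ± 0.30) and Mrpl2 (0.70 ± 0.25). Subunits outside the naming rule were few: Cyc1 of complex III (-0.29 ± 0.25), Cycs, cytochrome c itself (0.23 ± 0.22), and Ndufab1 (0.07 ± 0.21).

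**Figure D5:**
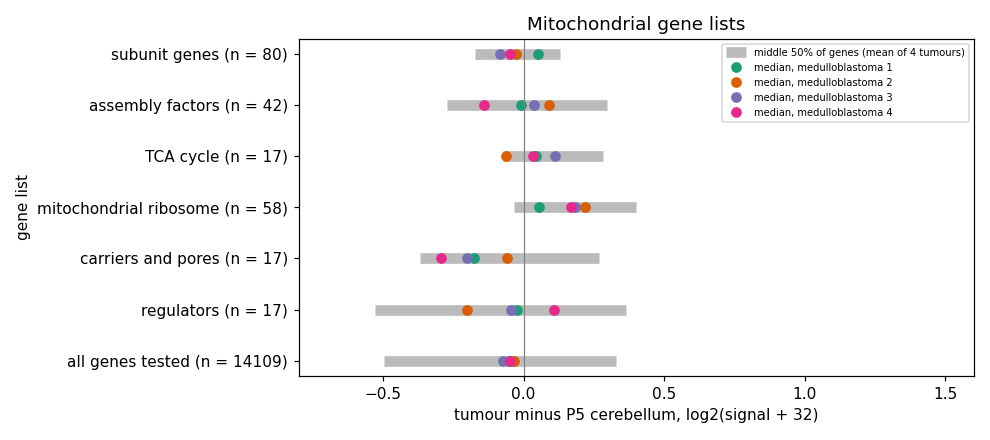
Median tumour minus P5 cerebellum difference in log2(signal + 32) per tumour (points) for 6 mitochondrial gene lists and all genes tested, with the middle 50% of genes, by the mean of the 4 tumours, as a grey bar. All medians lie between -0.29 and 0.22, and the bar of the subunit genes, from -0.17 to 0.13, is the shortest shown.

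Among 17 regulators of mitochondrial genes, 5 were above the cerebellum in all tumours (29.4%, against 25.1% of all genes). Below it were 4 (23.5%, against 30.8%), and the median was -0.05. Esrrg was the only regulator called, where 0.489% of all genes were. It encodes estrogen-related receptor gamma, a nuclear receptor that activates genes of respiration, with signals of 371, 304, 260 and 292 against a cerebellum signal of 1585. It fell by 2.26 on the log2 scale (SE 0.32; limma, adjusted p = 0.0336), and every tumour was far below. Its other probe sets were lower by less (-0.38 and -1.53), and with all 3 averaged the difference was -1.39 and not called (adjusted p = 0.209). The call was also lost without medulloblastoma 2, 3 or 4 (adjusted p = 0.138, 0.0704 and 0.0969), with no filter (0.0684), without a variance trend (0.0971) and with the ken tumours (0.0840); the range over alternatives was 0.00133 to 0.209. Ppargc1a, the coactivator that works with these receptors, read 313, 260, 228 and 291 against 576 (-1.01 ± 0.35, adjusted p = 0.252), and 3 of its 4 other probe sets were also below in every tumour. Its relative Ppargc1b was above, at 1285, 409, 386 and 329 against 161 (1.495 ± 0.66, adjusted p = 0.334). NRF1 itself was level (Nrf1, -0.02 ± 0.27), and Gabpa, Gabpb1, Yy1 and the mitochondrial DNA-binding factor gene Tfam were above in all tumours without passing (0.36 ± 0.26, 0.32 ± 0.27, 0.46 ± 0.24 and 0.54 ± 0.27). The 2 other genes of the ERR family, Esrra and Esrrb, differed by -0.53 ± 0.38 and -0.63 ± 0.31.

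Markers of cell types differed in signal between tumours and cerebellum, which does not tell cell number from RNA per cell. Of all genes tested, 25.1% were above the cerebellum in every tumour and 30.8% below. Of 8 astrocyte markers 5 were below the cerebellum in every tumour and 2 above, with a summed signal of 27830 to 32695 against 69122. All 9 microglia and macrophage markers were above, at 20586 to 26822 against 6563. Of 6 Purkinje cell markers 4 were below and 1 above (7512 to 33226 against 38276), of 8 granule neuron precursor markers 6 were above and 2 below (51612 to 62876 against 45302), of 7 mature granule neuron markers 4 were above and 1 below (20810 to 45322 against 27066), and of 8 endothelial markers 7 were below and 1 above (2442 to 3437 against 6101). Summed signals were 566 to 1007 against 1337 for brown fat markers (3 tested of 5), a list that holds Ppargc1a, with 576 of the cerebellum's sum, and 900 to 1280 against 1282 for erythroid markers (2 tested of 6). No marker had a signal of 0. Their part in the subunit values and in that of Esrrg was not tested.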

How the data were processed

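RNA of 4 mouse medulloblastomas and 1 P5 cerebellum had been measured on Affymetrix arrays. The deposited values are intensities on a linear scale, made with MAS5 for all arrays but medulloblastoma 3 per the submitters' processing notes; the tool for that array is not given in the sources used here. The mean of each deposited array after trimming 2% of probe sets at each end was 500.002. Detection calls were not used, and the number of arrays limits the precision. Replicate numbers follow the order of the records and pair nothing. Nothing in the labels says that tumours came from separate animals. The p-values rest on the spread between these tumour samples, and the single cerebellum array adds no measure of spread.

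Of 45101 probe sets, 34945 had 1 gene symbol in the platform annotation, 932 had several and were not used, 9160 were unnamed and 64 were controls; by Entrez gene ID 34741 matched GRCm38.p6 RefSeq genes and 0 symbols changed. For each of 18193 genes the brightest probe set, by mean signal, was used. Values were scaled to a trimmed mean of 500, and log2(signal + 32) was taken, which understates the change of dim genes. Genes averaging a signal of 100 or more, 14109 in all, were fitted with limma 3.58.1 in R 4.3.3 (lmFit, eBayes with a variance trend), two-sided, with Benjamini-Hochberg adjustment over all of them. The prior added 5.02 degrees of freedom to 3. With 4 tumours and 1 cerebellum the smallest exact permutation p is 0.2.

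The members and gene lists were chosen with earlier results of these data known. Named are, per complex, the 2 genes furthest on each side among those with all tumours on that side, the 5 with the largest SD among tumours, and tissue-restricted forms with their common counterparts; of other lists up to 3 genes furthest from 0. Ndufs1, Ndufs3, Ndufs8, Ndufv1, Ndufb7, Ndufc1, Sdhb, Sdhd, Uqcrfs1, Uqcrb, Cox5a, Cox5b, Cox7c, Atp5a1, Atp5k and the Atp5g genes were named besides, as were regulators beyond the furthest 3, after their values were seen. On data simulated for these 14109 genes, 20 runs with 200 changed genes, the fit found 5.8% of genes given a log2 change of 1 and 72.4% of those given 2, with 10.4 false calls on average. Alternatives were other scalings, constants, filters, probe set choices and variance models, the hmk arrays alone, each tumour left out and, added after seeing the data, the ken tumours with the cerebellum.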

Additional observations from a re-analysis of the deposited data

Results flagged for a closer look

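For 7 of the 80 members tested, 1 tumour stood apart from the other 3 by more than the 95% critical value of Dixon's ratio (the gap to the nearest tumour over the range of the 4, on the log2 scale). Chance flags about 1 in 20 groups. Medulloblastoma 1 was the high one for Atp5j (ratio 0.909), Atp5j2 (0.908; signal 12198) and Ndufa13 (0.899). Medulloblastoma 4 was the low one for Atp5d (0.952) and Atp5g1 (0.953; signal 2334). Medulloblastoma 2 was the low one for Ndufa12 (0.885) and Ndufa4 (0.834).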

How the results depend on the processing

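No paired analysis was possible because the cerebellum is a single array and replicate numbers are only names. No member was called in 15 of the 17 alternatives run; hmk arrays alone called 1 higher (Ndufa9) and 3 lower (Ndufv3, Cox8c and Atp5g3), where 11.9% of all genes were called, and leaving out a tumour gave 0 to 1 lower (Ndufv3, without medulloblastoma 1, where 5.89% were). Members above the cerebellum in all tumours were 7 after quantile normalization, 34 with equal medians, 26 with the hmk and 27 with the ken tumours, and 17 to 21 with a tumour left out; those below were 30 after quantile normalization, 6 with equal medians, 40 with the hmk and 27 with the ken tumours, and 21 to 31 with a tumour left out. The member median was -0.12 after quantile normalization and 0.16 with equal medians. Omitting the scaling nearly repeated the main fit, as the deposited arrays already had equal trimmed means, and was no separate check. Changing the filter or the variance model could not alter a difference, only its p-value. Averaging probe sets could not alter the difference of genes with 1 probe set. Of 505 values of 30 named members under alternatives, 476 kept direction and side of the threshold, including values whose direction could not change. Another 4 passed the threshold. Sign changed in 25, at 11 genes listed next, and the cause was not tested. With equal medians these were Atp5o (0.021), Ndufa12 (0.093), Cox8a (0.058), Cox7b2 (0.046), Cox6a1 (0.060) and Cox6b1 (0.10); after quantile normalization Atp5b (-0.058), Cox7b2 (0.025), Cox4i1 (-0.15) and Cox7a2 (-0.26); with all probe sets averaged Ndufa12 (0.12) and Cox6a2 (-0.20); without probe sets ending in x_at or s_at Ndufa12 (0.39); within the hmk arrays Ndufa12 (0.20), Cox7b2 (0.23), Cox4i2 (-0.17), Cox4i1 (-0.085) and Cox7a2 (-0.017); with the ken tumours Cox8a (0.33). With a tumour left out the ranges were -0.23 to 0.19 for Ndufa12, -0.36 to 0.077 for Cox8a, -0.28 to 0.10 for Cox7b2, -0.023 to 0.20 for Cox4i2, -0.070 to 0.072 for Cox4i1 and -0.022 to 0.13 for Cox7a2. The count of all genes called ranged from 0 (without medulloblastoma 4, or without a variance trend) to 1678 within the hmk arrays.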
